A study of Mus musculus with 2 samples.

Results

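Tumour neutrophils were described in 2 single-cell RNA libraries of CD45+ immune cells sorted from subcutaneous MFC tumours, a mouse forestomach carcinoma line, grown in wild type BALB/c mice. The control library came from mice given PBS, as its treatment label has it. The treated library came from mice that received 50 mg/kg of thonzonium bromide, a quaternary ammonium detergent known to uncouple proton transport by the vacuolar ATPase, every other day from day 6, with tumours taken on day 10. Each group is 1 library, and the number of mice behind it is not stated, so no test across animals was possible and every interval below is a 95% counting interval. Such intervals cover counting error only. They are too narrow for a difference between mice, and drug and library cannot be told apart.

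The neutrophils were selected on 10 genes among cells with at least 200 genes and at most 20% mitochondrial UMIs (unique molecular identifiers, 1 per captured transcript). A member had at least 5 UMIs of S100a8 and S100a9 together, at least 1 of Csf3r and at least 2 of G0s2, Cxcr2 and Retnlg together. It had at most 1 UMI of Csf1r, the macrophage growth factor receptor, and none of the T cell genes Cd3e and Cd3d or the B cell gene Cd79a. The rule found 197 of 12252 kept cells, made up of 67 among 6419 control cells and 130 among 5833 treated cells.

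Neutrophils are short-lived granulocytes made in the bone marrow under granulocyte colony-stimulating factor, whose receptor is Csf3r, and called into tissue by CXC chemokines that bind Cxcr2. Young cells carry granule proteins and S100a8 and S100a9, the calcium-binding alarmins of the cytosol. In tumours, neutrophils take up inflammatory, interferon-responsive or T cell-suppressive programmes, and they secrete chemokines that draw in more myeloid cells.

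Neutrophils were 1.04% of kept cells in the control library (0.810 to 1.32, exact Clopper-Pearson interval) and 2.23% in the treated one (1.87 to 2.64), a ratio of 2.14 (1.58 to 2.91). The size of that ratio depended on the Csf3r threshold. In the control library 56 cells failed on Csf3r alone, with a median of 1074 UMIs per cell and 39.5 UMIs of S100a8 and S100a9. In the treated library 15 cells did, with medians of 3370 and 166 UMIs. Without the Csf3r threshold the rule took 123 control cells (1.92%) and 145 treated cells (2.49%), and the ratio was 1.30 (1.01 to 1.66). Other kept cells were shallower in the control library as well, with a median of 4319 UMIs against 7434. Among cells with at least 2000 UMIs, the ratio was 1.71 (1.24 to 2.37).

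**Figure D1:**
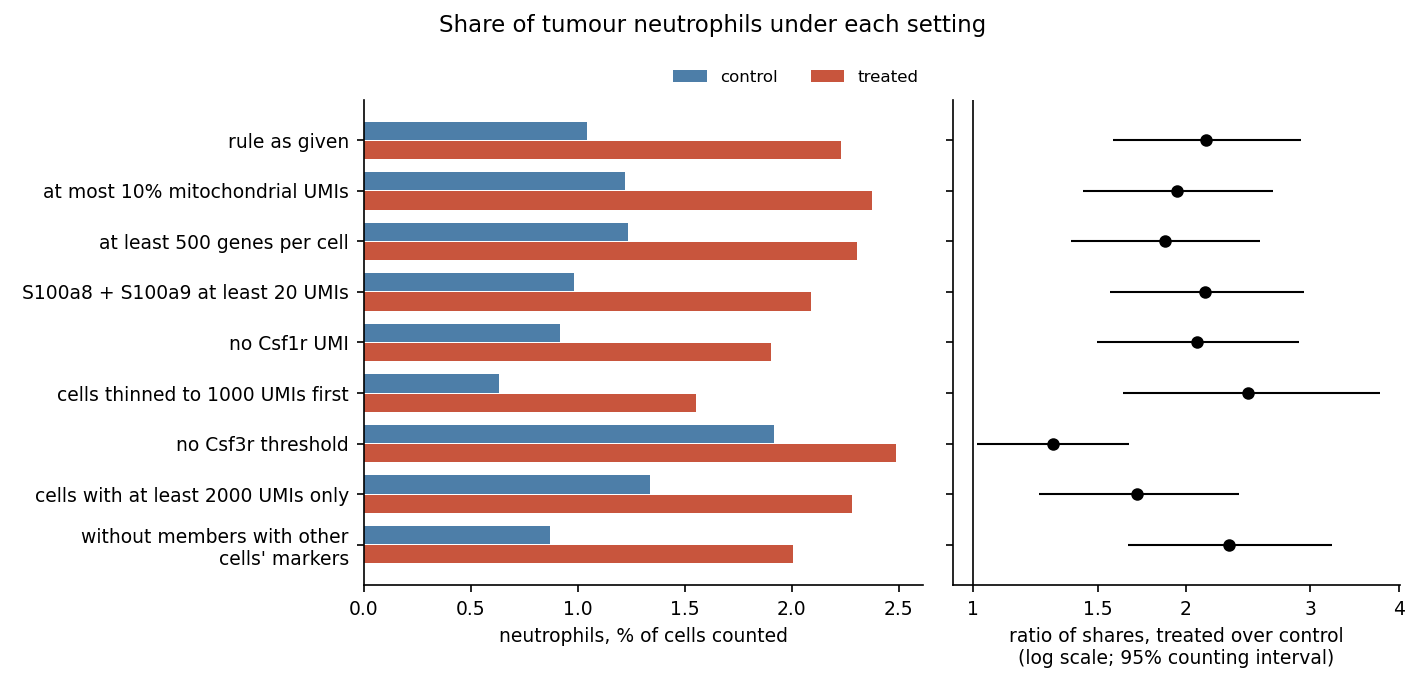
Neutrophils as a percentage of the cells counted (left, bars, control and treated library) and the ratio of the shares, treated over control, on a log scale with its 95% counting interval (right, points), for the rule as given and 8 other settings. The treated share is the higher one in all 9 rows, and the ratio lies lowest, at 1.30, where no Csf3r UMI was required.

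Cells just inside and just outside the thresholds are given as a description. Exactly 1 Csf3r UMI was found in 22 control and 18 treated members. Exactly 1 Csf1r UMI was found in 8 and 19 members, and 2 control and 19 treated cells failed on Csf1r alone. The granulocyte sum of G0s2, Cxcr2 and Retnlg alone excluded 16 and 45 cells, while S100a8 and S100a9 alone excluded 3 in each library.

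Neutrophils held fewer UMIs than other myeloid cells. The median member had 3341 UMIs and 935 genes in the control library and 3687 UMIs and 952.5 genes in the treated one. Monocytes (at least 2 Csf1r UMIs with Ly6c2, Vcan or Chil3) had medians of 8514 and 10300 UMIs. No barcode was shared by the members of both libraries. Some members also carried transcripts of other cells: 11 control and 13 treated members held at least 10 UMIs of the marker list of another cell type, mostly NK, monocyte, dendritic or erythroid. Those cells had medians of 5349 and 7916 UMIs and gave 25.8% and 27.4% of all member UMIs. All comparisons below were therefore repeated on the 56 and 117 members without them. Genes of the eosinophil, mast or basophil, and tumour or stroma lists were at or near 0. Siglecf, Epx, Mcpt8, Krt8 and Col3a1 had no UMI in the members of either library.

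Genes outside the rule were those of neutrophils too, which is a description and not a test, since the cells were selected on related genes. Il1b, the interleukin-1 beta gene, was found in 66 of the 67 control cells and in all 130 treated ones, and after thinning to 500 UMIs in 88.1% and 94.6%, against 2.71% and 3.33% of T cells thinned alike. Acod1, the itaconate synthase, was at 4197 counts per 1000000 member UMIs (CPM) in control and 4930 in treated neutrophils. That is 149-fold and 72.5-fold its level in all other kept cells. Cxcl2, the main mouse ligand of Cxcr2, was at 37169 and 35079 CPM, 147-fold and 82.3-fold. Histidine decarboxylase (Hdc), the amplifying receptor Trem1, arginase 2 (Arg2), the niacin receptor Hcar2, prostaglandin synthase 2 (Ptgs2) and the stefin-related genes Stfa2l1 and Cstdc4 also stood among the 20 genes highest over other cells. Stfa2l1 exceeded them by 250-fold and 269-fold. Stefins are near-identical copies whose reads can be split between genes, so their single levels are uncertain.

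Neutrophils transcribe granule genes in sequence while they mature in the marrow, and those of the primary granule were low. No gene of the primary granule and progenitor list reached 40 UMIs, and the 9 genes together were at 23.5 CPM in control and 20.7 CPM in treated neutrophils. The secondary granule list summed to 2500 CPM in control and 2364 CPM in treated neutrophils, and the tertiary list to 4221 and 3524 CPM. Of the 11 secondary granule genes, 5 were measured (at least 40 UMIs over both libraries). Lcn2, the iron-scavenging lipocalin, was at 811 and 638 CPM. Of 6 measured tertiary granule genes 5 had ratios above 1, with a median log2 ratio of 0.295. The lower tertiary sum came from Slpi, the gene with a ratio under 1, which is given below. Ly6g, the surface marker used to sort mouse neutrophils, had 2 UMIs in control and 48 in treated neutrophils, a ratio of 10.6 with an interval from 2.77 to 89.6. It was found in 2 of 67 and in 19 of 130 cells, so most members of both libraries had no Ly6g UMI at this depth. Thinned to 500 UMIs, 1.49% and 3.08% of neutrophils and 0.208% and 0% of T cells had one, too few to order the libraries by share.

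Across the transcriptome, 2100 genes outside the rule had at least 40 UMIs. A gene was called higher or lower when its CPM differed by at least 1.5-fold and the counting interval of the ratio left out 1. In the treated members 161 genes were higher (7.67%) and 98 lower (4.67%), and the median log2 ratio of all 2100 was 0.067. These shares are the background for the lists below. The balance moved with the scaling: with the median ratio set to 1, there were 127 higher and 129 lower, and with every cell weighted alike 186 and 254. Without the members rich in other cells' markers, 82 of the 161 and 62 of the 98 kept their call. Only 69 and 36 kept it under that setting, with every cell weighted alike and without the single member holding most UMIs of the gene in each library.

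Among the 23 gene lists, which do not include Ly6g, that of genes known from suppressive neutrophils held the measured gene with the highest ratio. Of 19 measured members of that list 5 were higher and 0 lower, against backgrounds of 7.67% and 4.67%. The list's median log2 ratio was 0.15, and its medians in monocytes, macrophages and T cells are given below. The 5 were Wfdc17, Ifitm1, Wfdc21, Cd14 and Ncf4. Arg2, Ptgs2 and Cd274 (PD-L1), genes with a direct place in T cell suppression, were not among them: their ratios were 1.20 (0.926 to 1.57), 0.908 (0.842 to 0.980) and 0.924 (0.793 to 1.08).

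Wfdc17 encodes a small secreted protein of the whey acidic protein family and lies at chr11:83703991-83706268 on the plus strand (mm10). It was at 1101 CPM (976 to 1238) in control and 6895 CPM (6683 to 7112) in treated neutrophils. The ratio was 6.26 (5.55 to 7.09). Per cell, control neutrophils held from 0 to 35 Wfdc17 UMIs with a median of 1, and treated members from 0 to 191 with a median of 21. It was found in 38 of the 67 control cells and 118 of the 130 treated ones. With every cell thinned to 500 UMIs the shares were 25.4% and 74.6%, against 0.556% and 2.57% of T cells thinned alike, taken as a background of free RNA and mixed barcodes, which were not told apart. The T cells included barcodes with up to 1190 and 2053 UMIs of S100a8 and S100a9. The values of the libraries overlapped. In raw counts the lower quartile of the treated cells (5 UMIs) lay above the upper quartile of the control cells (3 UMIs). After thinning to 500 UMIs it did not, at 0.25 against 0.5. The ratio was 6.11 without the members rich in other cells' markers and 6.77 without the top cell of each library.

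Ifitm1, an interferon-induced membrane protein that limits virus entry, lies on chromosome 7. It was at 1552 CPM (1403 to 1713) and 4498 CPM (4327 to 4674), a ratio of 2.90 (2.61 to 3.23). Control cells held from 0 to 39 Ifitm1 UMIs with a median of 3, and treated cells from 0 to 109 with a median of 15. After thinning it was found in 43.3% and 67.7% of neutrophils, against 5.97% and 3.25% of T cells. The libraries overlapped in Ifitm1 as well, with 15 control and 14 treated cells at 0.

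Cd14, the co-receptor for bacterial lipopolysaccharide, was at 2159 CPM (1983 to 2348) in control and 3405 CPM (3257 to 3559) in treated neutrophils, a ratio of 1.58 (1.43 to 1.74). Its median per cell was 5 UMIs among control and 10.5 among treated cells, with highest values of 44 and 86. Wfdc21 was at 415 and 700 CPM, a ratio of 1.68 (1.36 to 2.11), found in 27 and 73 cells. Thinned to 500 UMIs, however, it was found in 19.4% and 18.5% of cells. Ncf4, a regulatory subunit of the phagocyte oxidase, had a ratio of 1.59 (1.03 to 2.50), and 1.45 without the members rich in other markers, where it was no longer called.

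**Figure D2:**
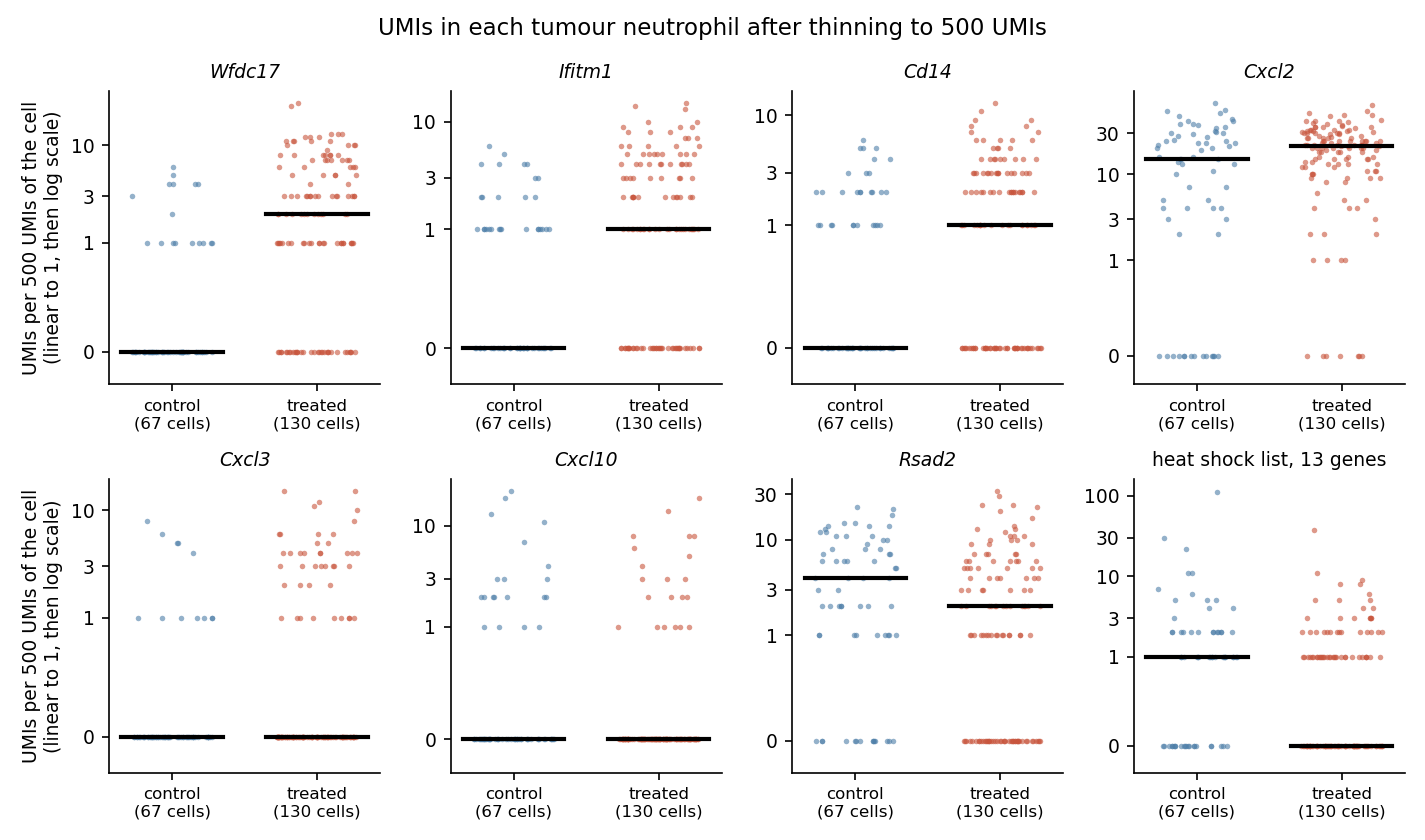
UMIs of 7 genes and of the 13 heat shock genes together in each of the 67 control and 130 treated neutrophils after every cell was thinned to 500 UMIs. Each point is a cell, the black bar is the median, and the axis is linear up to 1 and logarithmic above. The medians are 0 and 2 for Wfdc17, 15 and 21 for Cxcl2, 4 and 2 for Rsad2 and 1 and 0 for the heat shock genes, where single control cells reach far above the rest.

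Chemokines made up much of the message. The 13 genes of the list summed to 64462 CPM in control and 57591 CPM in treated neutrophils. Of 7 measured 2 were higher and 1 lower, against backgrounds of 7.67% and 4.67%. Cxcl2, Cxcl3 and Cxcl10 sit on chromosome 5 and each carry a kappaB motif, the binding sequence of NF-kB, in the 250 bases before the start. They are shown because their ratios went apart: 1 was higher, 1 lower and 1 within 1.5-fold. The sequences are RefSeq, build GRCm38.p6, in the direction of the gene, and come from the C57BL/6J reference, not from BALB/c. The capitals mark GGAAATTCC or its reverse complement, found on either strand in 0.286% of all 32851 promoters of that length.
Cxcl2 (chr5:90903763-90903851, plus strand): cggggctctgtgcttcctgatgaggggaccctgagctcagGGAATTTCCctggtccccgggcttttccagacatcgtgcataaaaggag
Cxcl3 (chr5:90785989-90786077, plus strand): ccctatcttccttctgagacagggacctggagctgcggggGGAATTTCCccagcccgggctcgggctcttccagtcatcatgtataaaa
Cxcl10 (chr5:92348999-92349087, minus strand): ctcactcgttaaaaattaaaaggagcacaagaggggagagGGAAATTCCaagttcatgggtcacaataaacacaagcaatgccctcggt

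The motif begins 96 bases before the start of Cxcl2, 72 before that of Cxcl3 and 158 before that of Cxcl10. The 9 chemokine genes with a promoter entry hold it in 4 cases, with Cxcl1 added, and the window of Cxcl10 also holds the interferon motif described below. A match is a description of these letters and not a shown binding site.

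Cxcl2 was nearly level in the sums, 37169 CPM (36425 to 37925) against 35079 CPM (34599 to 35565), a ratio of 0.944 (0.921 to 0.967). Its spread over cells differed in shape. Control cells held from 0 to 646 UMIs with a median of 116 and a lower quartile of 30.5, and treated cells from 0 to 518 with a median of 141 and a lower quartile of 85. After thinning, 14 of 67 control and 7 of 130 treated cells had no Cxcl2 UMI.

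Cxcl3, a further Cxcr2 ligand, was at 1340 CPM (1202 to 1490) and 2190 CPM (2072 to 2314), a ratio of 1.63 (1.45 to 1.85). It was found in 25 of 67 and 57 of 130 cells, and single cells reached 61 and 193 UMIs, so most cells of both libraries had none. After thinning the shares were 17.9% and 32.3%, against 0.278% and 0.151% of T cells. Cxcl10, the interferon-induced ligand of Cxcr3 on T and NK cells, was at 2994 CPM (2786 to 3214) in control and 1442 CPM (1346 to 1544) in treated neutrophils. This is 2.08-fold lower (1.88 to 2.29). It was found in 38 of the 67 control cells and 39 of the 130 treated ones, and after thinning in 29.9% and 16.2%, where 10.6% and 9.98% of T cells had a Cxcl10 UMI too. It was 1.97-fold lower without the top cell of each library.

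The CC chemokines Ccl3 and Ccl4 were at 6568 and 14662 CPM in the control and at 4498 and 12656 CPM in the treated members. Both ratios, 0.685 (0.644 to 0.729) and 0.863 (0.830 to 0.898), were within 1.5-fold. Within each library, cells with more Cxcl2 tended to hold more Ccl3 and Ccl4, with Pearson's r of 0.441 over 67 control and 0.389 over 130 treated cells thinned to 500 UMIs. The points share a library and a droplet run, and they include the members rich in other cells' markers. Ccl5 was called higher at 3.18-fold, but 85 of its 152 treated UMIs came from 1 cell, and without the members rich in other cells' markers it fell under 40 UMIs.

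Among cytokines and NF-kB regulators 1 of 19 measured genes was higher and 3 were lower, against backgrounds of 7.67% and 4.67%. Il1b was at 16358 CPM and 17607 CPM, a ratio of 1.08 (1.04 to 1.12), with medians of 51 and 70 UMIs per cell. Il1a, its close relative, had 18 and 98 UMIs, a ratio of 2.39 (1.44 to 4.21). Without the members rich in other markers its ratio was 1.69, Il1a was not called, and 0 of 17 genes of the list were higher and 3 lower. Csf1, the macrophage growth factor, was at 588 CPM (498 to 690) in control and 350 CPM (303 to 401) in treated neutrophils, 1.68-fold lower (1.35 to 2.09). Rel, an NF-kB subunit, was 2.01-fold lower (1.19 to 3.38), from 30 and 34 UMIs. Vegfa, the angiogenic growth factor, was 1.57-fold lower (1.08 to 2.25), and not called without the top cell of each library.

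Interferon-stimulated genes were abundant in both libraries. The 35 genes of the type I list, all measured, summed to 55667 CPM in control and 49109 CPM in treated neutrophils. Their median log2 ratio was -0.23 beside 0.067 over all genes, and 25 of the 35 ratios lay below 1. Only 1 gene was called higher, Ifitm1, and 4 were called lower: Mndal, Slfn5, Cmpk2 and Irf7. The backgrounds were 7.67% and 4.67%. The count depended on the cells taken: with no Csf3r threshold 1 gene was lower and the median was 0.03, and with cells thinned to 1000 UMIs before the rule 14 of 32 were lower and the median was -0.47.

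Rsad2 and Isg15, an antiviral enzyme and a ubiquitin-like protein, are shown as examples of the list. Capitals mark the core of the interferon-stimulated response element, searched as GAAANNGAA on both strands and present in 7.13% of promoters and in 14 of the 29 list members with an entry.
Rsad2 (chr12:26456523-26456611, minus strand): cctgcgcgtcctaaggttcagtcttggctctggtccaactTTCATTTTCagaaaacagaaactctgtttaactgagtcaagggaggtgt
Isg15 (chr4:156200836-156200936, minus strand): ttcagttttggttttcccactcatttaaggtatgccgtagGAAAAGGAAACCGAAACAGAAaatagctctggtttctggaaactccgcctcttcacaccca

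In Isg15 3 overlapping matches run together. Neither Wfdc17 nor Ifitm1, both called higher above, holds this core, the kappaB motif or the heat shock motif in the same window. This says only that these letters are not there. For Ifitm1 the RefSeq start used lies inside the annotated gene, which begins at chr7:140967221. Bases before that position were not searched.

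Rsad2 was at 10017 CPM (9633 to 10413) in control and 7779 CPM (7554 to 8009) in treated neutrophils, 1.29-fold lower (1.23 to 1.35) and so not called. Its median per cell was 26 UMIs among control and 13 among treated cells, and 2 of 67 and 22 of 130 cells had none. After thinning it was found in 79.1% and 64.6% of neutrophils and in 10.3% and 10.7% of T cells. Isg15 gave nearly the same ratio, 0.776 (0.730 to 0.824). Slfn5, a Schlafen family gene, was 1.61-fold lower (1.40 to 1.84) and was found in 61 of the 67 control cells and 85 of the 130 treated ones. Irf7, the transcription factor that amplifies interferon output, was 1.57-fold lower (1.33 to 1.84).

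Of 19 measured genes induced mainly by interferon gamma, 2 were higher and 0 lower, against backgrounds of 7.67% and 4.67%. The median log2 ratio was 0.08. Irf1, the transcription factor downstream of interferon gamma, was at 306 CPM (242 to 382) and 536 CPM (478 to 599), a ratio of 1.75 (1.36 to 2.28). Psmb9, an immunoproteasome subunit, had a ratio of 1.63 (1.14 to 2.39), and 1.42 without the members rich in other markers. Class I genes H2-K1 and H2-D1 and B2m were within 1.5-fold.

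Heat shock genes were the list with most members lower. Of 10 measured, 7 were lower, 0 higher, and the median log2 ratio was -0.77, against a background of 4.67% lower. Hspa1b, an inducible Hsp70, was at 1254 CPM (1120 to 1399) in control and 265 CPM (225 to 311) in treated neutrophils, 4.73-fold lower (3.89 to 5.77). Hsp90aa1, the inducible Hsp90, was 4.47-fold lower (3.81 to 5.25). Hspe1 and Hspd1, the mitochondrial chaperonin pair, were 2.70-fold and 2.07-fold lower. Hspa8, Dnaja1 and Hspa1a were 1.69-fold to 1.72-fold lower. Hspa1a and Hspa1b are near-identical copies, so reads can be split between them.

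A few cells held much of the heat shock RNA. A single control cell held 624 of the 1687 heat shock UMIs of its library (37.0%), with 210 of the 320 Hspa1b UMIs in 1 cell and 262 of the 464 Hsp90aa1 UMIs in 1 cell. In the treated library the top cell held 9.68%. The median cell had 8 heat shock UMIs among control and 5 among treated cells, and 16 cells of each had at least 20. Those 16 held few Cxcl2 UMIs in the control library, with a median of 4.5 against 151 in the other control cells, and 100.5 against 143.5 in the treated library. Of these cells, 7 of the 16 control and 8 of the 16 treated ones were members rich in other cells' markers, whose part in the low Cxcl2 was not tested. Without the top cell of each gene, 4 of 8 measured genes were still lower, Hspa1b by 2.37-fold and Hsp90aa1 by 2.18-fold. Without the members rich in other markers, 6 of 7 were. Where cells were thinned to 1000 UMIs before the rule, which left 34 control and 86 treated members, the list's median log2 ratio turned to 0.06.

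The start regions of Hspa1b and Hspe1 are shown because they hold the inverted repeat of heat shock elements, searched as GAANNTTC on both strands and marked in capitals. It is in 6.69% of promoters and in 6 of the 10 list members with an entry.
Hspa1b (chr17:34959295-34959382, minus strand): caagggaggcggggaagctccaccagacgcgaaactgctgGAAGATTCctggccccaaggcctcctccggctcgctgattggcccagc
Hspe1 (chr1:55088024-55088111, plus strand): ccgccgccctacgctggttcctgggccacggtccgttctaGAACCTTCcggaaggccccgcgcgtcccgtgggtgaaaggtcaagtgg

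Immediate early genes, which tissue handling can induce, were nearly level. A part of handling in the gaps between the libraries was not tested. Of 20 measured 0 were higher and 1 lower (Atf4), with a median log2 ratio of -0.06. Atf4 had 33 of its 59 control UMIs in 1 cell and a ratio of 1.16 without the top cell of each library. The mitochondrial share of UMIs was low in both libraries, with medians of 1.10% and 0.644%.

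**Figure D3:**
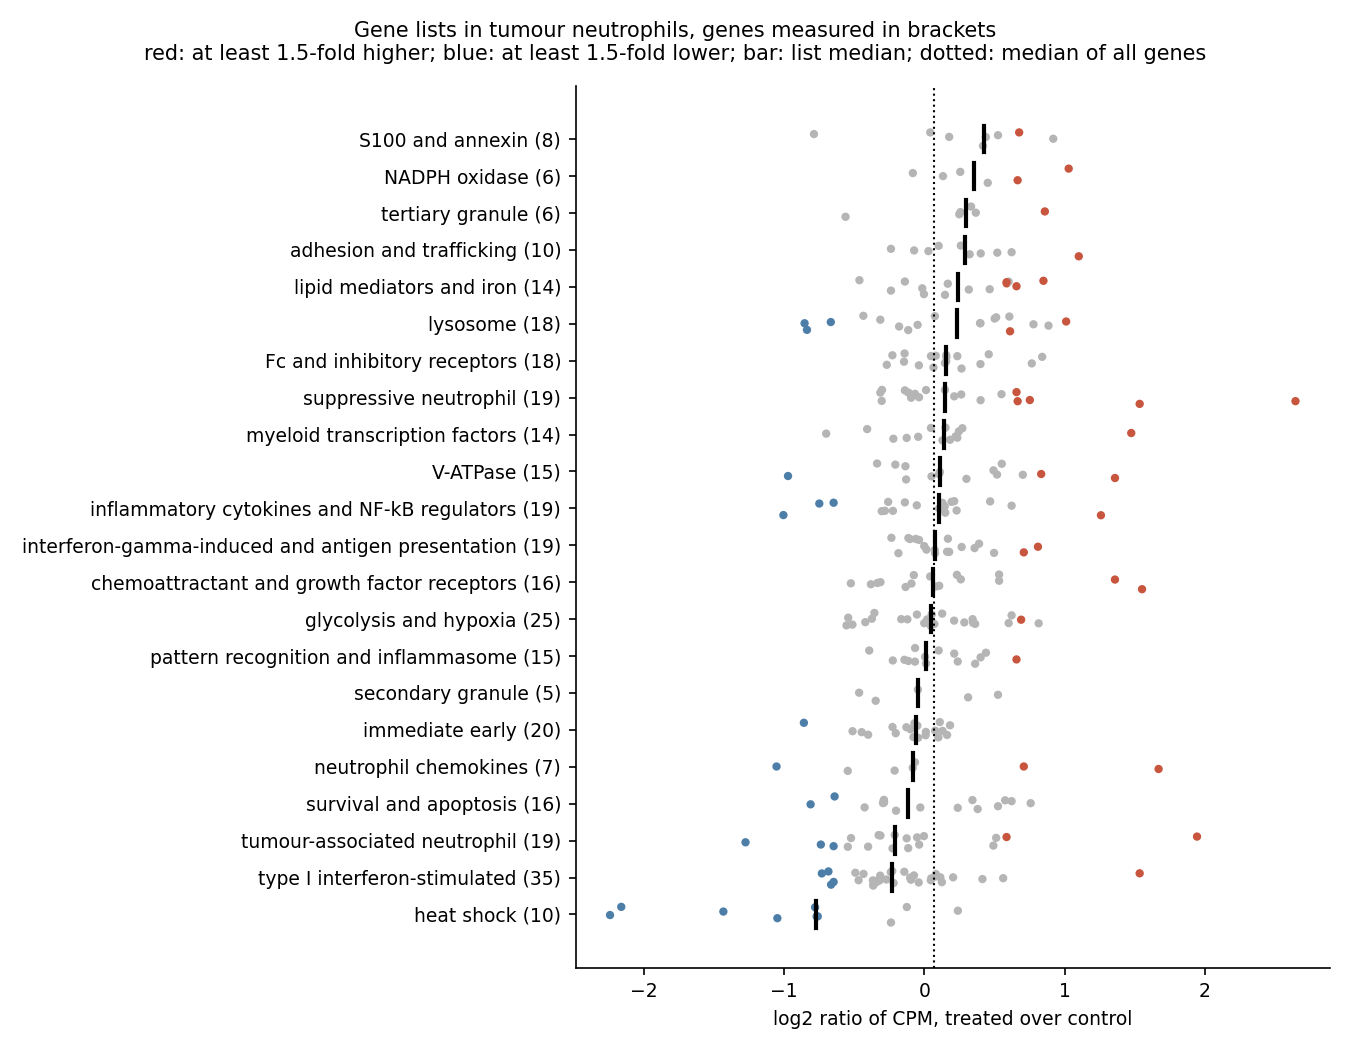
Log2 ratio of CPM, treated over control, for every measured gene of the lists with at least 5 measured genes (number in brackets), with genes at least 1.5-fold higher in red, at least 1.5-fold lower in blue, list medians as black bars and the median over all 2100 genes as a dotted line. The heat shock list lies lowest with a median of -0.77, and Wfdc17 in the suppressive neutrophil list is the point farthest to the right.

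The oxidase, adhesion and receptor lists are set against the background of 7.67% higher and 4.67% lower, and with so few genes their counts say little. Of 6 measured NADPH oxidase genes 2 were higher, and 1 of 6 without the members rich in other markers. Ncf1, the organising subunit p47phox, was at 98.0 CPM (63.4 to 145) and 200 CPM (165 to 240), a ratio of 2.04 (1.32 to 3.28), while Cybb, the catalytic subunit, was at 106 and 100.0 CPM. Itgb2, the shared chain of the leukocyte integrins, was at 129 CPM (89.0 to 182) and 277 CPM (236 to 324), a ratio of 2.15 (1.47 to 3.22). It was found in 27 of the 67 control cells and 84 of the 130 treated ones and was the 1 called gene of 10 measured in its list. T cells use Itgb2 as well, and after thinning it was found in 7.46% and 19.2% of neutrophils and in 9.65% and 10.7% of T cells.

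Of 16 measured chemoattractant and growth factor receptors 2 were higher. Il4ra, the receptor chain for interleukins 4 and 13, had 9 UMIs in 8 control cells and 60 UMIs in 44 treated cells, a ratio of 2.93 (1.45 to 6.72). Ifnar1, a chain of the type I interferon receptor, had 6 and 35 UMIs, a ratio of 2.56 (1.07 to 7.46). Without the members rich in other markers, and without the top cell of each library, Ifnar1 fell under 40 UMIs and Il4ra alone was higher. The collagenase Mmp8, placed in the tertiary granule list here, had a ratio of 1.81 (1.04 to 3.36), and 0.952 where no Csf3r UMI was required. Slpi, the leukocyte protease inhibitor, was at 3069 and 2078 CPM, 1.48-fold lower (1.35 to 1.62) and so short of a call on all members. Without the members rich in other markers it was at 3789 and 2522 CPM and was called lower.

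The vacuolar ATPase, the proton pump of lysosomes and granules, was followed through 16 genes, of which 15 were measured. Their sums were nearly equal, 3496 CPM in control and 3478 CPM in treated neutrophils, and the median log2 ratio was 0.11. Atp6v0c, the proton-binding ring subunit and the most abundant, was at 1301 and 1127 CPM, a ratio of 0.866 (0.758 to 0.991). Atp6v1b2, a subunit of the catalytic head, had a ratio of 1.78 (1.07 to 3.12), and Tcirg1, a membrane subunit, 2.56 (1.07 to 7.46) from 6 and 35 UMIs. Atp6v1d, of the central stalk, was 1.96-fold lower (1.28 to 3.00), from 44 and 51 UMIs. Without the members rich in other markers, Atp6v1b2 was not called and Tcirg1 fell under 40 UMIs, while Atp6v1d was 2.50-fold lower.

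Of 18 measured lysosomal genes 2 were higher and 3 lower, against backgrounds of 7.67% and 4.67%. Without the members rich in other markers 0 of 14 were higher and 3 lower, and without the top cell of each library 1 and 2 of 17. The cathepsin Ctsz was at 502 CPM (419 to 596) and 277 CPM (236 to 324), 1.81-fold lower (1.42 to 2.29). Sqstm1, the autophagy receptor p62, was 1.79-fold lower (1.18 to 2.70). Ctsl, a further cathepsin listed with tumour-associated genes, had 12 and 105 UMIs, a ratio of 3.85 (2.11 to 7.68), found in 9 and 40 cells, with 34 of the treated UMIs in 1 cell.

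Of the 19 measured tumour-associated neutrophil genes 2 were higher and 3 lower, against backgrounds of 7.67% and 4.67%, with a median log2 ratio of -0.21. The balance turned on single cells: 4 were higher and 1 lower without the top cell of each library, and 1 higher and 4 lower without the members rich in other markers. Spp1, osteopontin, was 2.42-fold lower (2.12 to 2.76), but 338 of its 464 control UMIs were in 1 cell, and without the top cell of each library its ratio was 1.27. Tgif1 was 1.67-fold lower (1.20 to 2.32). In the lipid mediator and iron list 4 of 14 were higher, against 7.67%, but 2 of them lay at the edge of the 1.5-fold limit. With haemoglobin left out of the total, or with the median ratio set to 1, 2 of 14 were higher. Alox5ap, which feeds arachidonic acid to leukotriene synthesis, was at 443 and 665 CPM, just past the fold used. Pla2g7, an enzyme that degrades platelet-activating factor, had a ratio of 1.58 (1.22 to 2.07) and the iron exporter Slc40a1 one of 1.80 (1.11 to 3.06). Fth1, the ferritin heavy chain, was at 21834 and 15839 CPM, 1.38-fold lower (1.33 to 1.43).

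Of 25 measured glycolysis and hypoxia genes only Gapdh was called, with a ratio of 1.61 (1.38 to 1.89) from 792 CPM (686 to 909) and 1277 CPM (1187 to 1372). Without the members rich in other markers 1 of 24 was higher and 3 lower, beside 113 and 160 of all 1521 genes. With cells thinned to 1000 UMIs before the rule 2 of 20 were higher and 7 lower, beside 90 and 139 of 1195. Of 16 survival genes Bcl2 and Gadd45b were lower, against a background of 4.67%. Mcl1, the survival factor neutrophils depend on, was at 3229 and 3166 CPM. Among the S100 and annexin genes not in the rule Anxa2 was higher with a ratio of 1.60 (1.29 to 1.99), but 1.48 and not called without the members rich in other markers, where 0 of 5 were. On all members S100a6 and S100a11 had ratios of 1.35 (1.24 to 1.48) and 1.34 (1.23 to 1.46). The rule's own S100a8 and S100a9 had ratios of 1.17 and 1.15, which the selection used and which support nothing.

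Beyond the lists, several of the most extreme ratios rested on few cells. Gzmf, a T and NK cell granzyme, had 365 of its 367 treated UMIs in 1 cell. Stfa1 had 120 treated UMIs in 8 cells with 59 in 1 of them, and Csta2 had 42 of 49 control UMIs in 1 cell. More widely spread were Tcn2, a vitamin B12 carrier, with 8 UMIs in 5 control and 64 UMIs in 44 treated cells (ratio 3.52, 1.68 to 8.50), and the phosphate transporter Slc20a1 (ratio 3.46, 1.65 to 8.37). At the other end, Ralgapa1 was 2.69-fold lower (1.65 to 4.41), from 39 and 33 UMIs in 24 and 27 cells. The choline kinase Chka was 3.13-fold lower (1.79 to 5.53) and Gadd45g 2.77-fold lower (2.07 to 3.71). Ifit1bl1, of the Ifit family, was 3.79-fold lower (2.23 to 6.57).

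Monocytes, macrophages (at least 2 Csf1r and 3 C1q UMIs) and T cells of the same tumours were compared in the same way. Wfdc17 was higher in each of them too, with ratios of 1.48 (1.39 to 1.57) in monocytes, 2.01 (1.78 to 2.27) in macrophages and 2.70 (2.30 to 3.18) in T cells, none of whose intervals reached that of neutrophils. The T cell value rests on the low share of cells with a UMI given above. Ifitm1 was not higher elsewhere: the ratios were 0.908, 0.868 and 0.564. Cxcl10 was 2.08-fold lower in neutrophils and within 1.5-fold in these classes, at 0.904, 0.970 and 1.14, but 3.74-fold higher (3.04 to 4.65) in B cells and 1.59-fold higher (1.56 to 1.61) over all other kept cells. Rsad2, at 0.777 in neutrophils, was at 1.11, 0.952 and 1.03, with 2.08 in B cells and 1.53 over all other kept cells. The 35 type I interferon genes had median log2 ratios of -0.02 in monocytes and 0.05 in macrophages. The suppressive neutrophil list had medians of 0.25 in monocytes, 0.12 in macrophages and 0.56 in T cells, beside 0.15 in neutrophils. Over all genes the medians were -0.044, 0.035 and -0.045 in these classes, and 0.067 in neutrophils.

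Hspa1b was lower in other classes as well. It was at ratios of 0.527 in monocytes, 0.530 in macrophages and 0.464 in T cells, all more than 1.5-fold lower. The neutrophil ratio was 0.212, but a single control cell held 65.6% of the Hspa1b UMIs of the control neutrophils. The distance of neutrophils from the other classes in Hspa1b is therefore uncertain. In monocytes 5 of 12 measured heat shock genes were lower, against 6.48% of all genes measured there, with a list median log2 ratio of -0.54. In T cells 3 of 13 were lower, against 3.55%, with a median of -0.41. In macrophages 2 of 12 were lower, against 3.28%, and the list's median of -0.02 lay close to the 0.035 of all genes. Gapdh and Ncf1 stayed within 1.5-fold in these 3 classes. Whether the gaps differ between cell classes could not be tested with 1 library per group.

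**Figure D4:**
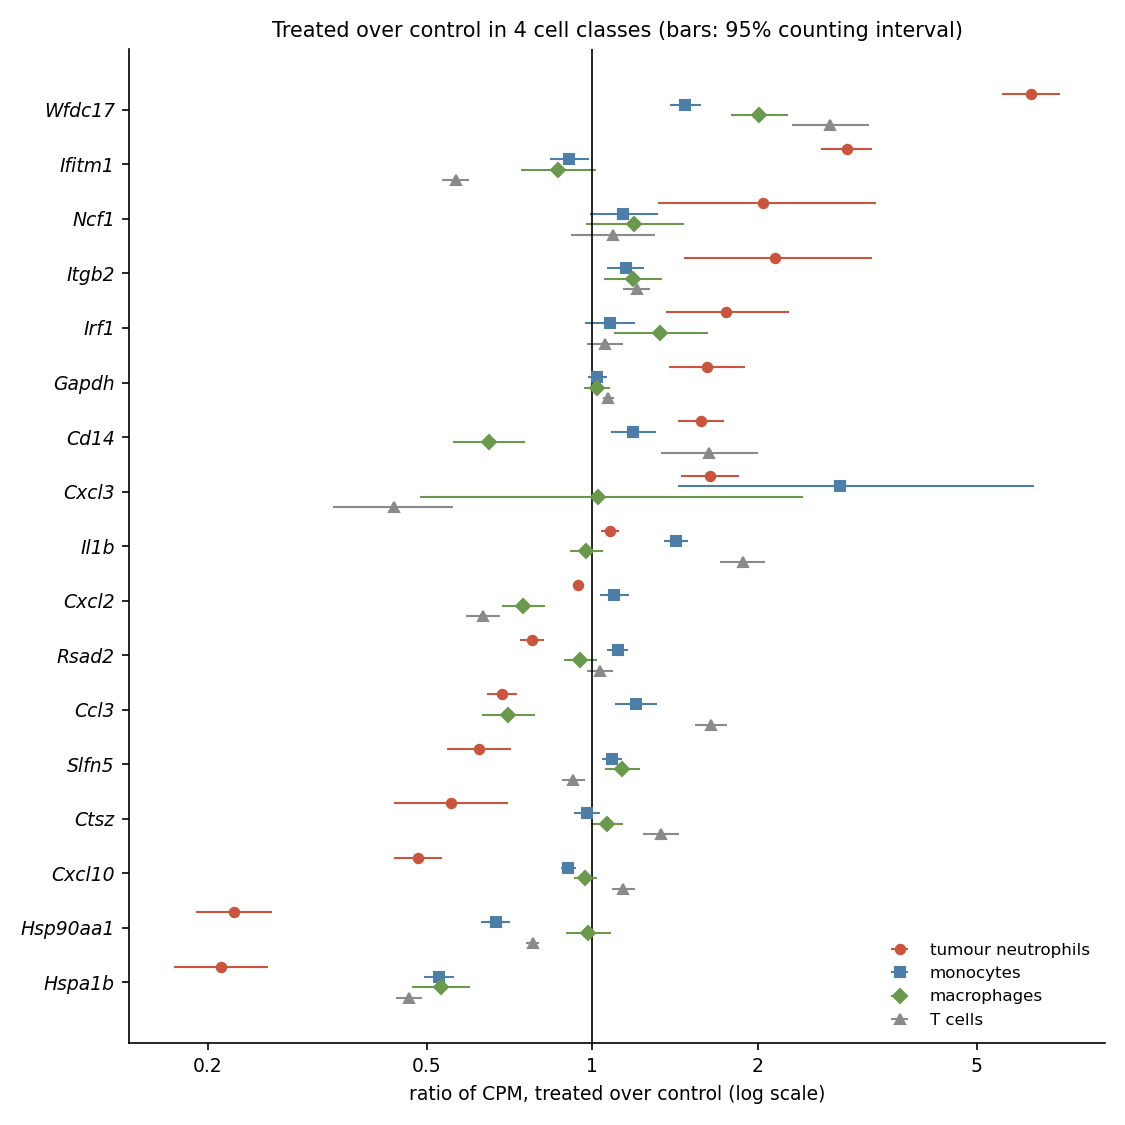
Ratio of CPM, treated over control, on a log scale with 95% counting intervals for 17 genes in tumour neutrophils, monocytes, macrophages and T cells. Wfdc17 and Hspa1b lie on the same side of 1 in all 4 classes, with neutrophils farthest out, while Ifitm1 is above 1 in neutrophils only. For Hspa1b a single control cell holds 65.6% of the UMIs of the control neutrophils. Without the top cell of each library its neutrophil ratio lies closer to 1, and with cells thinned before the rule it lies above 1.

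Within each library, cells with more S100a8 and S100a9 held more secondary granule UMIs, with Pearson's r of 0.616 over 67 control and 0.442 over 130 treated cells thinned to 500 UMIs. They held more Wfdc17 as well, at 0.369 and 0.400. S100a8 and S100a9 are genes the cells were selected on, and these values describe the cells of 1 library each. The members rich in other cells' markers are included. The sums come from the same 500 UMIs of a cell, so a gene that takes more leaves fewer for the rest. S100a8 and S100a9 ranged from 1 to 146 of 500 UMIs in control cells, with a median of 32, and from 0 to 166 in treated cells, with a median of 46.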

How the data were processed

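Single-cell RNA was measured in 2 libraries, 1 control and 1 treated. The deposited matrices are raw UMI counts over 32285 genes, made with Cell Ranger 6.1.2 per the file headers. Seurat 3.0, R 3.5.3 and the mm10 build stand in the submitters' processing notes. Kept cells held 44148296 control and 50871432 treated UMIs, and members 255158 and 580285. Counts of members were summed per library and scaled to CPM of the member total. CPM intervals are exact Poisson and ratio intervals exact conditional binomial, at 95% (numpy 2.4.6, scipy 1.17.1, pandas 2.3.3). The comparison was checked on simulated data with independent Poisson counts per gene, which hold counting error only and no spread between cells. No doublet caller was used. Members carrying markers of other cells stayed in and were left out in an alternative. Members and the 23 gene lists were chosen with earlier results of these data known. Named genes were the 15 highest and 15 lowest ratios among 385 candidates (at least 50 CPM, interval excluding 1, at least 25% of the level in every other class), each list's most abundant member and up to 2 at each end, the 20 highest over other cells, neutrophil markers and the V-ATPase. Other list members named, and the settings on the Csf3r threshold, cells of at least 2000 UMIs, marker-rich members and top cells, were chosen after their values were seen. Genes were matched to GENCODE vM21, and promoters come from RefSeq.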

Additional observations from a re-analysis of the deposited data

How the results depend on the processing

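Settings were compared one at a time, and a value counted as moved when it left its own counting interval, or for a count when it changed by over 1.5 times. The share of neutrophils kept its direction throughout, with ratios from 1.30 with no Csf3r threshold to 2.45 with cells thinned to 1000 UMIs before the rule. The number of genes at least 1.5-fold higher was 161 of 2100 as reported, 90 of 1195 with that thinning, 22 of 352 with members thinned to 500 UMIs and 86 of 1014 with at least 100 UMIs per gene. The number lower was 98 as reported, 172 with no Csf3r threshold, 160 without the members rich in other cells' markers, 254 with cells weighted alike, 37 with members thinned to 500 UMIs and 51 with at least 100 UMIs per gene. The heat shock median of -0.77 was -1.14 without the marker-rich members, -1.16 with cells weighted alike, -1.69 with members thinned to 500 UMIs and 0.057 with thinning to 1000 UMIs before the rule. There Hspa1a, Hspa1b and Hspa8 had ratios of 4.44, 1.47 and 1.05, and Spp1 5.31. The type I interferon median was 0.029 with no Csf3r threshold, and Mmp8 was then at 0.952. Of the other list medians, that of secondary granules moved from -0.05 to 0.32 with no Csf1r UMI and to 0.66 with thinning before the rule (3 of 5 genes higher). That of chemokines moved from -0.08 to -0.25 with this thinning, 0.07 with no Csf3r threshold and 0.16 with cells weighted alike. That of immediate early genes moved from -0.06 to 0.17 with no Csf3r threshold. With members thinned to 500 UMIs glycolysis moved from 0.045 to 0.47 and myeloid transcription factors from 0.14 to 0.63. Without the top cell of each library Atf4 was at 1.16 and Spp1 at 1.27. With members thinned to 500 UMIs Gadd45b was at 1.21 and Wfdc21 at 0.964, and with cells weighted alike Irf8 was at 0.657. Of the other gene ratios, 143 moved and 933 did not. With 67 control members, a gene with few UMIs is bounded only loosely. No paired analysis was possible because each group is 1 library.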
